A study of Homo sapiens with 6 samples.

Results

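Of 46427 genes in the deposited count table, 40 encode proteins that copy DNA or make the deoxynucleotides for it, and these 40 DNA replication genes were taken by symbol from a fixed list, drawn up with earlier results of these data known. All 40 passed edgeR's filter on low counts and are among the 17419 genes tested. They were measured by RNA-seq in Hs578T, a human triple-negative breast cancer cell line of mesenchymal type, in 3 libraries of cells carrying a control shRNA (shCTRL) and 3 libraries of cells carrying an shRNA against CCN3 (shCCN3). CCN3 is a secreted matricellular protein, and the comparison asks how the mRNAs of the cells differ once it is depleted. Both lines were made by retroviral transduction and puromycin selection and grown in DMEM with 10% fetal bovine serum, so the only labelled difference is the shRNA. The shCCN3 line carries a single shRNA, number 2 of the study, so these libraries cannot tell apart an effect of CCN3 loss from an effect of that shRNA or of the selection of the line. Levels are given as CPM, a gene's counts scaled to the normalized size of its library, and differences as log2 fold changes of shCCN3 minus shCTRL.

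Replication of DNA begins at origins. In G1 the origin recognition complex (ORC), CDC6 and CDT1 load the MCM2-7 ring, an inactive helicase, onto DNA. At the start of S phase CDC45 and the GINS complex bind the ring and turn it into the active helicase, RPA coats the unwound single strands, polymerase alpha with primase lays down primers, and polymerases delta and epsilon extend them on the sliding clamp PCNA, which the RFC complex loads. FEN1 and LIG1 join the lagging-strand fragments. RRM1 with RRM2, TYMS and TK1 supply deoxynucleotides. Many of these genes are known targets of E2F transcription factors, which act as cells pass from G1 into S phase.

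As a list, the replication genes did not shift. Their median log2 fold change was 0.01, beside 0.01 for all genes tested, and 20 had a positive and 20 a negative value. Individual genes did change, in both directions and within the same complexes. By the quasi-likelihood test of edgeR, at an adjusted p under 0.05, 7 of the 40 genes were higher in shCCN3 cells and 11 were lower. Over all genes tested, 16.2% were higher and 17.3% lower by the same test, so the count of higher members was near the background and that of lower members above it. The latter was 7 without the 4 members on chromosome 7, where 697 of 821 genes tested had negative values. The 17.3% still includes that chromosome, so the 7 has no matching background share here. The count of higher members fell to 4 without shCTRL replicate 3 or shCCN3 replicate 1. The count over all genes tested fell as well, from 2814 of 17419 to 2278 of 17840 and 2161 of 17818 higher genes. Those that rose furthest were the helicase subunit GINS2 and the licensing factor CDT1, at about 1.5-fold, and those that fell furthest were the clamp loader subunit RFC2, the single-strand binding subunit RPA2 and the origin subunit ORC1.

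The promoters of these genes are shown because the pairs at the ends of the range can be read side by side. Each sequence covers the 250 bases before the transcription start, from RefSeq on GRCh38.p14, read 5′ to 3′ along the gene. Capitals mark E2F motifs, taken as TTTCCCGC, TTTGGCGC, TTTCGCGC or TTTGCCGC on either strand. GINS2 and CDT1 had the largest rise.
GINS2, chr16:85688955-85689204, minus strand: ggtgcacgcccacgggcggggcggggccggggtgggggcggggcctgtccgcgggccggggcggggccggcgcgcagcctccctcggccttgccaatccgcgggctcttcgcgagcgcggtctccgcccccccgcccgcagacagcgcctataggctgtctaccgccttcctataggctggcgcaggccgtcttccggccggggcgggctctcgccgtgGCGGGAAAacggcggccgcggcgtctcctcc
CDT1, chr16:88803539-88803788, plus strand: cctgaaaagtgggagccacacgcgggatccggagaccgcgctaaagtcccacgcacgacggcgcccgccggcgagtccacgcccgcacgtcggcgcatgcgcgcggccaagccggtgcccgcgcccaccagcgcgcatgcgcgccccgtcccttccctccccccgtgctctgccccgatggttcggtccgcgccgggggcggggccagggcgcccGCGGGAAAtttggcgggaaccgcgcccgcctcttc
RFC2 and ORC1 had the largest falls among the members with an entry in the promoter table.
RFC2, chr7:74254400-74254649, minus strand: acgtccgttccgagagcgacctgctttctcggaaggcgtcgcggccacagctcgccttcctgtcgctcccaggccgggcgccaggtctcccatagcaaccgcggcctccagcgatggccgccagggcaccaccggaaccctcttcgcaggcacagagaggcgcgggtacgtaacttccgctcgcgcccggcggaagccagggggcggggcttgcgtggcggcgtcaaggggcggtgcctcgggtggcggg
ORC1, chr1:52404424-52404673, minus strand: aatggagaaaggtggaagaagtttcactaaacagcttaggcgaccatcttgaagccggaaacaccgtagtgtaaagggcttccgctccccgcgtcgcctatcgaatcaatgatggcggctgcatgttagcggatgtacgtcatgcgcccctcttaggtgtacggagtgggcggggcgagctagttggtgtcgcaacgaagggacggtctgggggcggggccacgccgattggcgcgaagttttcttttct
MCM6, a helicase subunit, was chosen after its motif count was seen, because it held the most matches.
MCM6, chr2:135876444-135876693, minus strand: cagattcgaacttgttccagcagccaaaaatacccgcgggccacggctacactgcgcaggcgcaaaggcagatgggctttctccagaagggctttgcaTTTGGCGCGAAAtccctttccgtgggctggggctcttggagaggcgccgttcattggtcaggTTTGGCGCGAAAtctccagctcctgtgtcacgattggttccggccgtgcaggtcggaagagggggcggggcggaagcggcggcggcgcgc

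The promoters of GINS2 and CDT1 each held 1 E2F match, which began 31 bases before the start in GINS2 and 35 bases before it in CDT1. Those of RFC2 and ORC1 held no match in these windows. The ORC1 window lies inside the RefSeq span of the gene, which runs to base 52409503, so sequence before that outer end was not searched. It also holds attggcgc, which differs from TTTGGCGC only in the first base. These windows therefore do not show that ORC1 lacks an E2F site. In CDT1, tttggcgg follows the match and was not counted, since it differs from TTTGGCGC in the last base. MCM6 held 4 matches in 2 places, since a stretch that reads TTTGGCGCGAAA contains one motif on each strand. Over windows from 250 bases before to 50 bases after the start, 17 of the 34 members with an entry held an E2F motif. The share was 3.99% of 27305 genes with an entry and 6.37% of the 12597 genes tested with one. It was in 5 of 6 members that rose, 4 of 8 that fell and 8 of 20 that did not pass the test, and the difference between these shares was not tested. CCAAT, the box bound by NF-Y, was in 21 of the 34 members (61.8%), beside 39.7% of all genes with an entry. The CHR motif of mitotic promoters (TTTGAA or TTCGAA) was in 2 of 34 members (5.88%), beside 19.5%. MCM4, MCM5, GINS4, RPA2, RPA3 and POLD3 had no entry.

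The libraries held 56159110 to 68393177 counts. At this depth 3 counts, the limit that a count of 0 allows, correspond to 0.0435 to 0.054 CPM, and this covers counting error only. CCN3 mRNA, the target, was 103, 102 and 98.1 CPM in the shCTRL libraries and 47.4, 47.2 and 46.5 CPM in the shCCN3 libraries. Its log2 fold change was -1.10 (SE 0.055, adjusted p = 1.34e-06 from edgeR), and the exact two-sided permutation test gave p = 0.1, the smallest that 3 libraries against 3 allow. Of the marker genes, VIM, CD44, FN1, SPARC and ZEB1 were expressed and their summed level was 13150 CPM in shCTRL and 12390 CPM in shCCN3 cells. Among these 5, 1 was lower by the test of edgeR (adjusted p = 0.00429), beside 17.3% of all genes tested. For 3 of them every shCCN3 library lay below every shCTRL library, beside 23.6% of all genes tested. The 7 luminal markers summed to 102 and 96.9 CPM, with group means of ESR1, CDH1 and EPCAM below 0.1 CPM. ERBB2 made most of that sum, with 77.9 CPM in shCTRL and 78.2 CPM in shCCN3 cells, and KRT8 fell by 0.52 on the log2 scale (adjusted p = 0.00221 from edgeR). The leukocyte markers summed to 0.61 and 0.64 CPM with CD3E at 0, and the endothelial markers to 4.58 and 3.98 CPM with CDH5 at 0. Replicate 2 of shCCN3 stood apart from the others of its group, with a chi-square per degree of freedom of 37.6 and 46 against them, where the other 2 differed by 9.9. The members whose call changes without it are named with their values.

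The 40 genes were well measured. The lowest count of any member in any library was 681, and 39 of the 40 lay at or above the median level of the genes tested. Their summed level was 4366.6, 4410.9 and 4422.8 CPM in the shCTRL libraries and 4456, 4616.2 and 4379.4 CPM in the shCCN3 libraries. The ranges of the groups overlapped, with means of 4400 ± 29.6 and 4484 ± 121 CPM (SD, n = 3 each). For 13 members every shCCN3 library lay above every shCTRL library, for 11 every one lay below, and 16 overlapped. Among all genes tested, the groups were apart in this way for 22.7% upward and 23.6% downward. In bulk RNA, fewer cells in S phase and less RNA per cell cannot be told apart.

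**Figure D1:**
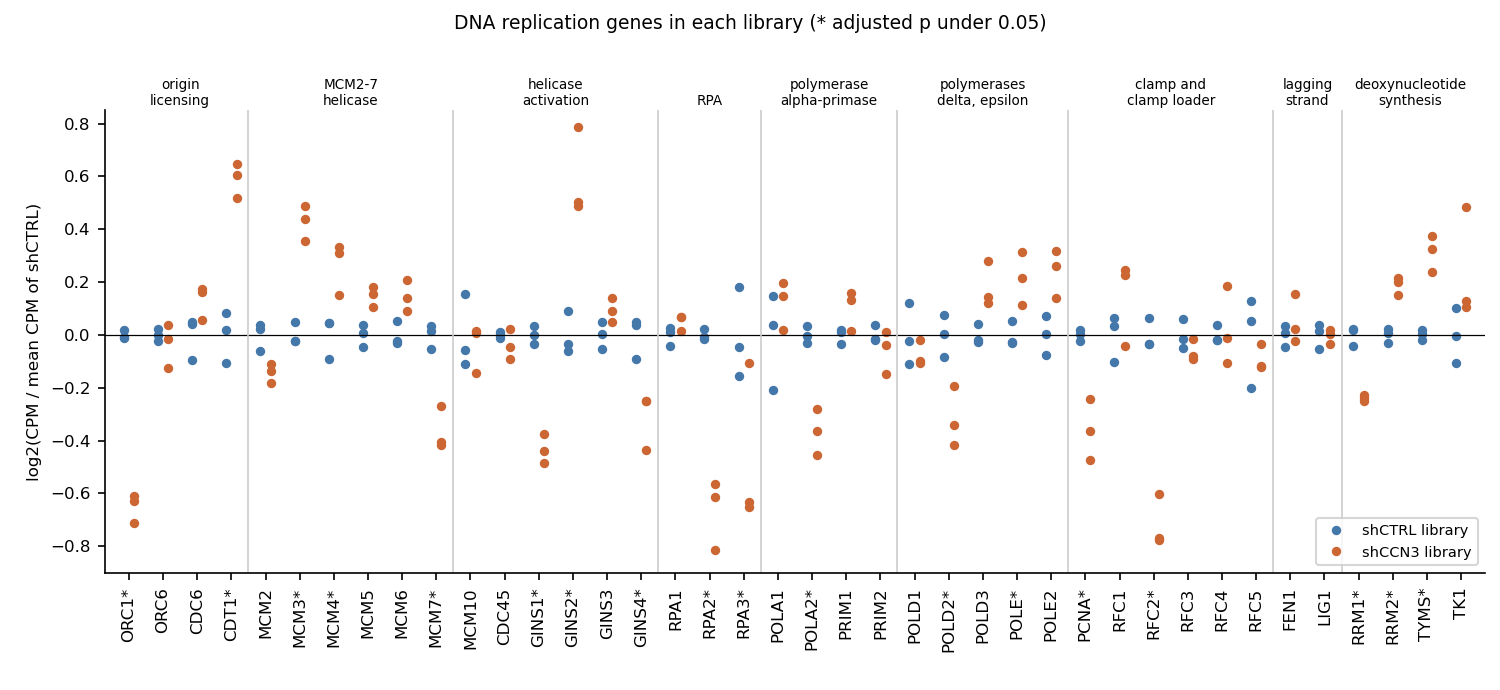
Each point is 1 library, as the log2 ratio of its CPM to the mean CPM of shCTRL, for the 40 genes ordered by role. Genes of the same complex part in both directions, such as MCM3 and MCM7 or GINS1 and GINS2, as do the separate licensing factors ORC1 and CDT1. The shCCN3 points of GINS2 and RPA3 show the spread that replicate 2 adds.

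Among the 4 licensing genes, ORC1 fell, CDT1 rose, and ORC6 and CDC6 did not pass the test. Over all genes tested, 16.2% were higher and 17.3% lower. The calls in each role here and further on are to be read beside these shares. ORC1, the largest ORC subunit, was 30.6, 30.6 and 31.2 CPM in the shCTRL libraries and 18.8, 20.2 and 19.9 CPM in the shCCN3 libraries. The groups were far apart and tight, and the log2 fold change was -0.65 (SE 0.065, adjusted p = 7.8e-05 from edgeR). CDT1, which brings MCM2-7 to the origin, was 45.5, 49.6 and 51.85 CPM in shCTRL and 74.5, 76.6 and 70.1 CPM in shCCN3 cells. It rose in each shCCN3 library, with a log2 fold change of 0.59 (SE 0.070, adjusted p = 0.000204 from edgeR). The 2 changes add up within each library: CDT1 was 1.49 to 1.66 times ORC1 in CPM in shCTRL and 3.52 to 3.96 times in shCCN3 cells. Log2 fold changes were 0.13 (adjusted p = 0.174) for CDC6, the ATPase that recruits MCM2-7 together with CDT1, and -0.03 (adjusted p = 0.737) for ORC6. The pairs of genes set as ratios here and further on were chosen after their values were seen.

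The 6 subunits of the MCM2-7 ring, which assemble in equal numbers, were apart between the groups in all cases, but in different directions. In 4 the shCCN3 libraries lay above and in 2 below, beside 22.7% and 23.6% of all genes tested. MCM3 was 152, 152 and 159.8 CPM in shCTRL and 198, 217 and 209.8 CPM in shCCN3 cells. MCM4 was 249, 249 and 226 CPM in shCTRL and 304, 267.7 and 299 CPM in shCCN3 cells. MCM7 went the other way, from 277, 290.2 and 294 CPM to 216.5, 238 and 215 CPM. MCM3 and MCM4 rose, with log2 fold changes of 0.43 (SE 0.059, adjusted p = 0.000524) and 0.27 (SE 0.070, adjusted p = 0.0164), and MCM7 fell, with -0.36 (SE 0.062, adjusted p = 0.00182). MCM2 was 195, 198 and 184 CPM in shCTRL and 179, 169.5 and 175 CPM in shCCN3 cells. MCM5 was 248, 257 and 263 CPM and then 285, 291 and 276 CPM. MCM6 was 73.5, 69.5 and 69.8 CPM and then 75.4, 78.2 and 81.9 CPM. In these 3 subunits the shift was small, with log2 fold changes of -0.14 (adjusted p = 0.0857), 0.15 (adjusted p = 0.0669) and 0.15 (adjusted p = 0.0923), and none passed the test. MCM3 was 0.539 ± 0.0132 times MCM7 in CPM in shCTRL and 0.934 ± 0.0361 times in shCCN3 cells (SD, n = 3 each). The rise of MCM4 did not pass 0.05 when shCTRL replicate 3, shCCN3 replicate 1 or shCCN3 replicate 3 was left out (adjusted p = 0.0692, 0.0722 and 0.0547 from edgeR).

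The 6 genes of helicase activation hold the 4 GINS subunits, which also work as 1 complex. GINS2 was 56.9, 58.0 and 63.2 CPM in shCTRL and 83.2, 102 and 84.05 CPM in shCCN3 cells. It rose, with a log2 fold change of 0.60 (SE 0.090, adjusted p = 0.000858), and replicate 2 of shCCN3 was the highest library. GINS1 fell from 49.2, 48.1 and 46.9 CPM to 35.4, 34.4 and 37.1 CPM, a log2 fold change of -0.43 (SE 0.062, adjusted p = 0.000658). GINS4 fell as well, with a log2 fold change of -0.31 (SE 0.074, adjusted p = 0.0103), and GINS3 had one of 0.09 (adjusted p = 0.323). The call of GINS4 was lost without shCTRL replicate 2 (adjusted p = 0.0588). GINS2 over GINS1 went from 1.24 ± 0.1 to 2.53 ± 0.39 in CPM (SD, n = 3 each). CDC45, the partner of GINS in the active helicase, and MCM10, which is needed for its activation, had log2 fold changes of -0.04 each and overlapped between the groups.

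RPA, the single-strand binding complex, has 3 subunits. RPA2 was 80.4, 80.0 and 82.0 CPM in shCTRL and 52.8, 54.7 and 46.0 CPM in shCCN3 cells. RPA3 was 43.1, 39.97 and 50.4 CPM in shCTRL and 28.3, 41.3 and 28.7 CPM in shCCN3 cells. RPA2 fell in every library, with a log2 fold change of -0.66 (SE 0.074, adjusted p = 0.000144 from edgeR). RPA3 also passed the test, with -0.44 (SE 0.148, adjusted p = 0.0461), but replicate 2 of shCCN3 lay within the range of shCTRL. Without that library the log2 fold change of RPA3 was -0.64 (adjusted p = 0.000326), and the call was lost when any of the other 5 libraries was left out (adjusted p up to 0.157). RPA1, the large subunit that makes most of the contacts with DNA, did not move beyond its spread, with a log2 fold change of 0.05, a 95% interval of -0.07 to 0.17 and an adjusted p of 0.521. RPA1 over RPA2 went from 2.02 ± 0.0746 to 3.33 ± 0.364 in CPM (SD, n = 3 each).

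Of the 9 polymerase and primase genes, 2 fell and 1 rose, a share near the 16.2% higher and 17.3% lower of all genes tested. POLA2, the regulatory subunit of polymerase alpha, fell from 82.0 ± 1.85 to 63.6 ± 3.81 CPM (SD, n = 3 each), with a log2 change of -0.37 (SE 0.064, adjusted p = 0.00199). The catalytic subunit POLA1 and the primase subunits PRIM1 and PRIM2 had log2 fold changes of 0.12, 0.10 and -0.06 and overlapped between the groups. POLD2, the second subunit of polymerase delta, fell from 219.9 ± 12.1 to 177 ± 14 CPM (SD, n = 3 each), with a log2 change of -0.31 (SE 0.073, adjusted p = 0.00933). POLE, the catalytic subunit of polymerase epsilon, rose from 67.1 ± 2.17 to 78.0 ± 5.42 CPM (SD, n = 3 each), with a log2 change of 0.22 (SE 0.068, adjusted p = 0.0345). Log2 fold changes were 0.24 for its partner POLE2 (adjusted p = 0.057) and 0.18 for the delta subunit POLD3 (adjusted p = 0.0733), both with the groups apart, while the catalytic subunit POLD1 had one of -0.07 (adjusted p = 0.471). POLE lost its call when any library other than shCCN3 replicate 2 was left out, with an adjusted p of up to 0.125, and POLD3 passed the test without shCCN3 replicate 2 (adjusted p = 0.0306).

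The clamp and its loader, 6 genes, held 2 that fell and none that rose, beside 17.3% lower and 16.2% higher of all genes tested. PCNA, the sliding clamp, was 174, 171 and 176 CPM in shCTRL and 135, 146.5 and 125 CPM in shCCN3 cells. It fell in every library, with a log2 fold change of -0.36 (SE 0.068, adjusted p = 0.00319 from edgeR). RFC2, a small subunit of the clamp loader, was 58.8, 58.7 and 62.8 CPM in shCTRL and 35.1, 39.6 and 35.3 CPM in shCCN3 cells. Its log2 fold change of -0.71 (SE 0.070, adjusted p = 6.74e-05) was the largest of the 40 genes. The other 4 loader subunits overlapped between the groups, with log2 fold changes of 0.15 for RFC1, -0.06 for RFC3, 0.03 for RFC4 and -0.09 for RFC5. RFC1 passed the test only when shCCN3 replicate 2 was left out (adjusted p = 0.0127). RFC2 was 0.668 ± 0.0102 times RFC4 in CPM in shCTRL and 0.401 ± 0.0188 times in shCCN3 cells (SD, n = 3 each). FEN1, the flap nuclease, and LIG1, the ligase, had log2 fold changes of 0.05 (adjusted p = 0.564) and 0.00 (adjusted p = 0.964).

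The deoxynucleotide genes had the highest median level per transcript length of all roles. RRM2, the small subunit of ribonucleotide reductase, was 461, 456 and 444 CPM in shCTRL and 526, 521.5 and 504 CPM in shCCN3 cells. RRM1, its large subunit, was 213, 212 and 203 CPM and then 179, 176 and 177.5 CPM. The subunits of this enzyme parted, RRM2 with a log2 fold change of 0.19 (SE 0.052, adjusted p = 0.0208) and RRM1 with -0.24 (SE 0.053, adjusted p = 0.00725). RRM2 over RRM1 was 2.15 to 2.18 in the shCTRL libraries and 2.84 to 2.965 in the shCCN3 libraries, in CPM. TYMS, thymidylate synthase, was 259.8, 267 and 264 CPM in shCTRL and 330.1, 342 and 311 CPM in shCCN3 cells, and rose with a log2 fold change of 0.31 (SE 0.057, adjusted p = 0.00264). TK1, the thymidine kinase of S phase, was 224.5, 240.5 and 259 CPM in shCTRL and 259.7, 337.5 and 264 CPM in shCCN3 cells. Its log2 fold change of 0.25 (SE 0.104, adjusted p = 0.0989) did not pass the test, and without shCCN3 replicate 2, the highest library, it was 0.12 (adjusted p = 0.159). RRM2 lost its call without shCTRL replicate 1, 2 or 3 or shCCN3 replicate 1, and RRM1 lost its call without shCTRL replicate 2 (adjusted p = 0.0535).

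The changes were modest in size. Of the 40 genes, 35 differed by less than 1.5-fold. At 1.5-fold or more with an adjusted p under 0.05, 2 were higher (GINS2 and CDT1) and 3 lower (RFC2, RPA2 and ORC1), beside 7.89% and 7.85% of all genes tested. The 22 genes that did not pass the test were not shown to be equal between the groups: the intervals of 11 of them reach beyond 0.25 on the log2 scale.

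Per length of transcript, the order of the genes within a complex can be set out. Levels per kilobase use the longest principal transcript of GENCODE release 29 and assume that this transcript is the one expressed. TYMS had the highest mean, 158.6 CPM per kilobase in shCTRL and 197 in shCCN3 cells, followed by TK1, RRM2 and PCNA in both groups. The libraries of TYMS and TK1 overlapped in both groups, and in shCTRL TK1 was at 148 ± 10.7 CPM per kilobase (SD, n = 3). POLA1 was lowest, at 3.24 CPM per kilobase in shCTRL and 3.53 in shCCN3 cells. Within MCM2-7, MCM7 was highest in shCTRL at 97.1 ± 3.12 CPM per kilobase and MCM6 lowest at 18.98 ± 0.592 (SD, n = 3 each), a span of 5.11-fold. In shCCN3 cells MCM5 was highest at 80.4 ± 2.097 CPM per kilobase, with MCM7 next at 75.5 ± 4.34 and the libraries of both overlapping, and the span was 3.82-fold. In the licensing group the span went from 2.26-fold to 3.66-fold, with ORC1 at 9.75 ± 0.110 and then 6.22 ± 0.229 CPM per kilobase. CDT1 moved from place 29 of 40 to place 20, GINS2 from 20 to 15, and ORC1 from 36 to 39.

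**Figure D2:**
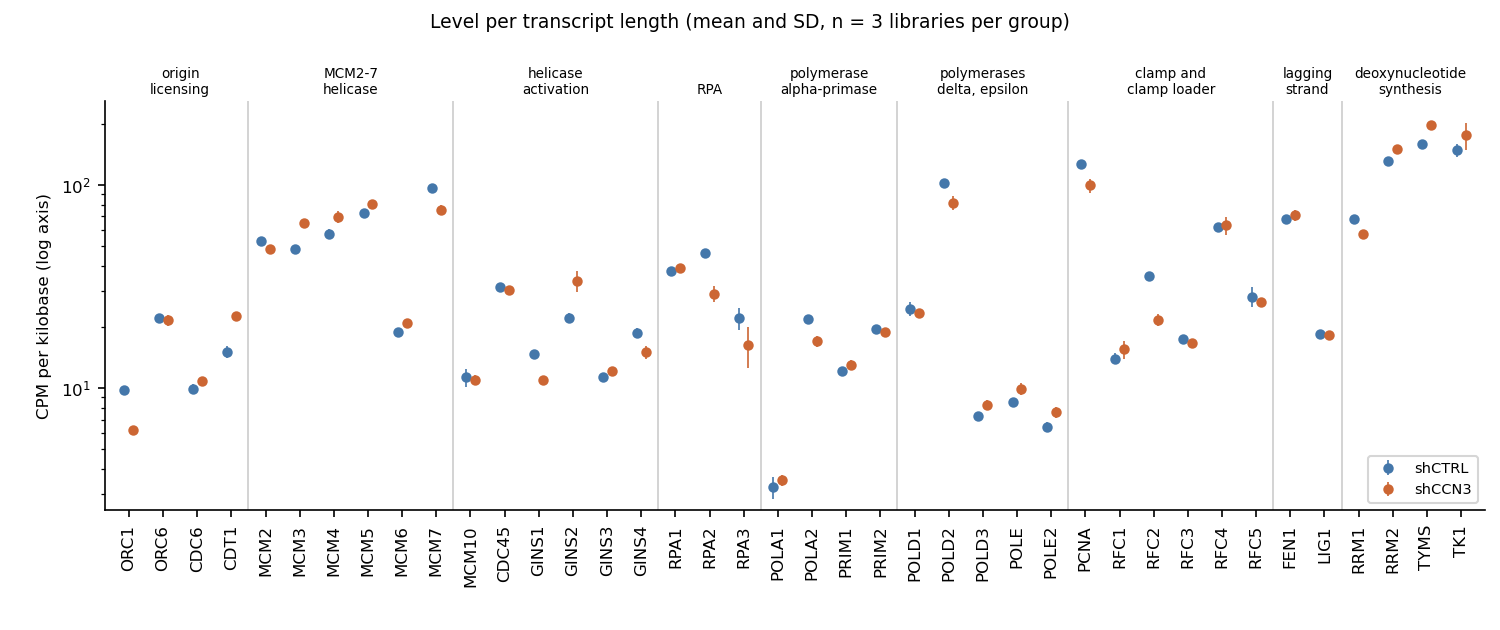
Mean CPM per kilobase of transcript on a log axis, with SD over 3 libraries per group, for the 40 genes ordered by role. TYMS, TK1, RRM2 and PCNA lie at the top in both groups and POLA1 at the bottom, and the gap between group means is small beside the differences between genes.

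The genes around a member on its chromosome often moved with it. For each gene the median log2 fold change of its 24 nearest tested neighbours was taken, 12 on either side where the chromosome allowed and the gene itself left out. Of the 11 members that fell, 10 had neighbours with a negative median, and of the 7 that rose, 6 had neighbours with a positive one. This makes 16 of 18 (88.9%), beside 70.5% of the 5772 genes that passed the test and had neighbours. Over all 40 members Pearson's r between a gene and its neighbours was 0.78 and Spearman's rho 0.69, beside 0.24 and 0.34 over 17121 genes; these are descriptions across genes measured in the same 6 libraries. Of the 18, 12 lay within 0.2 on the log2 scale of their neighbours' median, beside 23.2% of all genes that passed the test. Members and all genes are not alike here. At least 1.5-fold were 1367 of the 3011 lower and 1375 of the 2814 higher genes, but only 3 of the 11 and 2 of the 7 members. A small change meets a fixed distance more easily. Moreover, 39 of the 40 members lay at or above the median level, while the 17121 genes include lower and noisier ones.

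Several members lay close to their neighbours. RFC2, with -0.71, lies on chromosome 7 among neighbours with a median of -0.73, of which 23 of 24 were lower in shCCN3 cells. MCM7 on the same chromosome had 24 of 24 lower neighbours and a median of -0.56, and all 4 members on chromosome 7 (MCM7, POLD2, RFC2 and RPA3) fell. The median over the 821 genes tested on that chromosome was -0.43. CDT1 and GINS2 both lie near the end of chromosome 16, where their neighbours had medians of 0.61 and 0.65, while the median over the whole of chromosome 16 was 0.01. PCNA and GINS1 on chromosome 20 fell by 0.36 and 0.43 beside medians of -0.54 and -0.46. MCM3 on chromosome 6, with 0.43, lay beside a median of 0.39, and on chromosome 8 MCM4, with 0.27, and GINS4, with -0.31, lay beside medians of 0.46 and -0.41. What part position has in these differences was not tested, and DNA was not measured here.

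Other members differed from their neighbours. ORC1 and RPA2, both on chromosome 1, fell by 0.65 and 0.66 where their neighbours had medians of -0.14 and -0.17, which leaves -0.51 and -0.49. RRM1 on chromosome 11 fell by 0.24 among neighbours with a median of 0.18. POLA2 on the same chromosome fell by 0.37 beside a median of -0.02. TYMS on chromosome 18 and RRM2 on chromosome 2 rose by 0.31 and 0.19 beside medians of 0.03 and -0.06. POLE on chromosome 12, with 0.22 beside a median of 0.06, was still within 0.2 of its neighbours and so does not count among these. In the opposite case, RFC4 on chromosome 3 had a log2 fold change of 0.03 and neighbours with a median of 0.40. The neighbours were compared after the members' values had been seen.

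**Figure D3:**
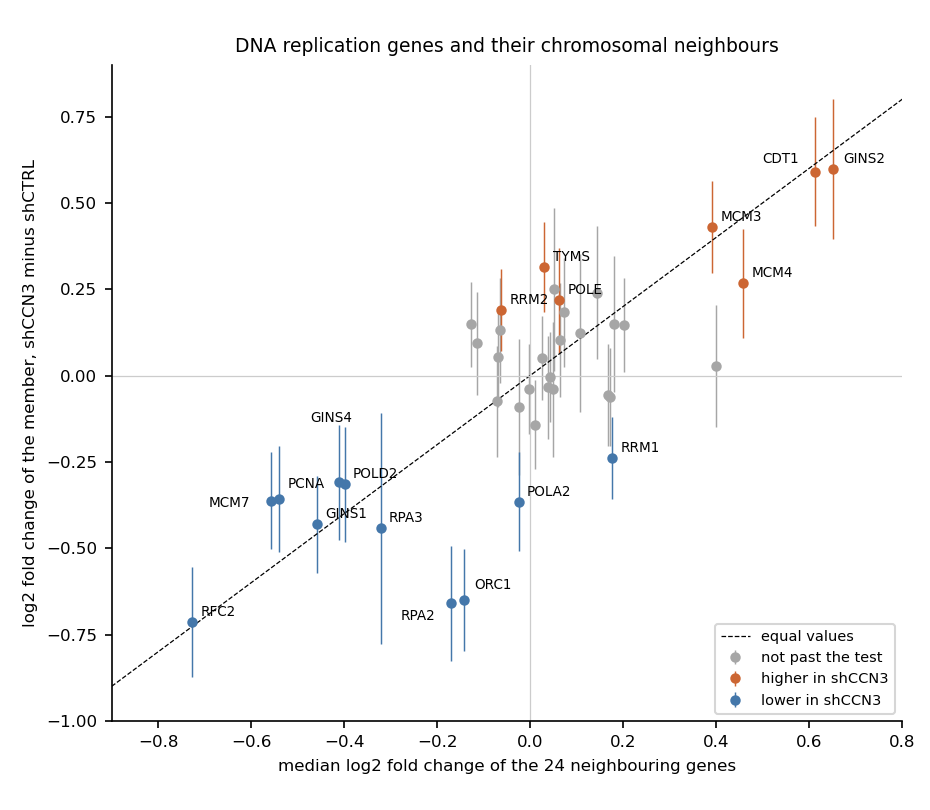
Log2 fold change of each replication gene with its 95% interval against the median log2 fold change of its 24 neighbours; colours mark adjusted p under 0.05 and the dashed line equal values. RFC2, GINS1, MCM3, CDT1 and GINS2 lie close to the line, and ORC1, RPA2, POLA2 and RRM1 lie below it.

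Genes that share exons with the members limit some of these values, since the sources used here do not state whether counting used the strand. In GENCODE release 29, 46.6% of the exon bases of TYMS overlap another gene, mainly ENOSF1 on the opposite strand. For POLA2 it is 35.1%, with a readthrough gene on the same strand, and for MCM2, GINS4, PRIM1 and RRM2 it is 23.6%, 23.6%, 21.6% and 20.2%. ORC1, CDT1, MCM3, GINS1, RPA2, PCNA and RFC2 had no overlap.

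Of 37 replication factors outside the 40, 8 were higher and 7 lower, with a median of 0.03, and both counts were near the 16.2% and 17.3% of all genes tested. With a library left out the median ranged from -0.02 to 0.07. Without shCTRL replicate 3, shCCN3 replicate 1 or shCCN3 replicate 3 the count of higher genes was 5, and without shCTRL replicate 2 that of lower genes was 4. MCM9, a helicase of repair, rose by 0.64 (adjusted p = 0.000555) and GMNN, the inhibitor of CDT1, by 0.51 (adjusted p = 0.000264). DBF4, which activates the kinase CDC7, fell by 0.63 (adjusted p = 0.00019) and MCM8 by 0.52 (adjusted p = 0.00127). CDT1 and its inhibitor thus rose together, and CDT1 over GMNN was 1.19 ± 0.0457 in shCTRL and 1.26 ± 0.0319 in shCCN3 cells, in CPM (SD, n = 3 each). All 4 of these genes lay beside neighbours that moved their way, with medians of 0.52 for MCM9, 0.44 for GMNN, -0.48 for DBF4 and -0.52 for MCM8. Among 9 other nucleotide genes, 1 was higher, SAMHD1, which breaks deoxynucleotides down, which rose by 0.44 (adjusted p = 0.0027) beside a neighbour median of -0.01. Without shCCN3 replicate 2 the counts among these 9 genes were 3 higher and 2 lower.

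The regulators and other phases of the cell cycle were set beside the replication genes. Of 20 genes of the E2F, RB and DREAM regulators, 3 were higher and 2 lower, with a median of -0.03, beside 16.2% higher and 17.3% lower of all genes tested. These counts moved to 5 higher without shCCN3 replicate 2 and to 1 lower without shCTRL replicate 2. E2F3 and MYBL2, activators of cell cycle genes, rose by 0.55 and 0.45 (adjusted p = 0.00951 and 0.000414 from edgeR), while RBBP4 and E2F2 had log2 fold changes of -0.33 and -0.25. The medians of their neighbours were 0.48 for E2F3, -0.05 for MYBL2, -0.29 for RBBP4 and -0.19 for E2F2. For E2F1 and RB1 the log2 fold changes were -0.11 (adjusted p = 0.351) and 0.08 (adjusted p = 0.669). Of 10 S-phase checkpoint genes, 1 was higher and 1 lower, beside the same shares of all genes. WEE1, the kinase that restrains CDK1, rose by 0.46 (adjusted p = 0.00228) beside a neighbour median of -0.02. HUS1 fell by 0.28 (adjusted p = 0.0241) beside a neighbour median of -0.24. The call of HUS1 was lost without shCTRL replicate 2 or 3 or shCCN3 replicate 1 or 3.

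Of 29 mitotic genes, 5 were higher and 2 lower, with a median of 0.11 and 24 positive values, beside 16.2% higher and 17.3% lower of all genes tested. Negative values made up 49.1% of all genes tested. CCNA2 and TPX2 rose by 0.25 and 0.23 (adjusted p = 0.0149 and 0.0104), CDC20 and SPC24 had log2 fold changes of -0.34 and -0.36 (adjusted p = 0.00529 and 0.02), and the proliferation marker MKI67 had one of 0.08 (adjusted p = 0.478). This count rests on single libraries: it was 14 higher without shCCN3 replicate 2, where MKI67 also passed the test (adjusted p = 0.0338) and so did E2F1, at -0.18 (adjusted p = 0.0331), and it was 0 to 2 without any one of the other 5. Over all genes the count of higher genes moved as well, from 2814 to 3571 without shCCN3 replicate 2. It was 2044 to 2367 when any other library was left out. Without shCTRL replicate 2 or shCCN3 replicate 1, CCNA2, TPX2 and SPC24 all missed the test. CCNA2 and SPC24 also missed it without shCTRL replicate 3 or shCCN3 replicate 3. Neighbour medians were 0.17 for CCNA2, 0.03 for TPX2, -0.27 for CDC20 and -0.04 for SPC24. Of 13 G1 cyclins, CDKs and inhibitors tested, 5 were higher and 1 lower, beside the same shares of all genes, with a median of 0.18. That median ranged from 0.09, without shCCN3 replicate 1, to 0.25, without shCTRL replicate 1. CDKN2B, an inhibitor of CDK4 and CDK6, rose most, by 1.03 (adjusted p = 8.27e-06), from 10.7 to 21.9 CPM. CDK6 itself rose by 0.97 although its neighbours on chromosome 7 had a median of -0.38. CCNE1, the cyclin that drives entry into S phase, rose by 0.48, the inhibitor CDKN1A by 0.43 and CCND1 by 0.24, the last not past the test without shCCN3 replicate 1 (adjusted p = 0.0512). CDKN1A lay beside a neighbour median of 0.46, while these medians were 0.05 for CDKN2B, 0.07 for CCNE1 and -0.09 for CCND1. The G1 genes therefore held the 2 largest values of these lists, while the median of the replication genes was near 0; the difference between the lists was not tested.

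**Figure D4:**
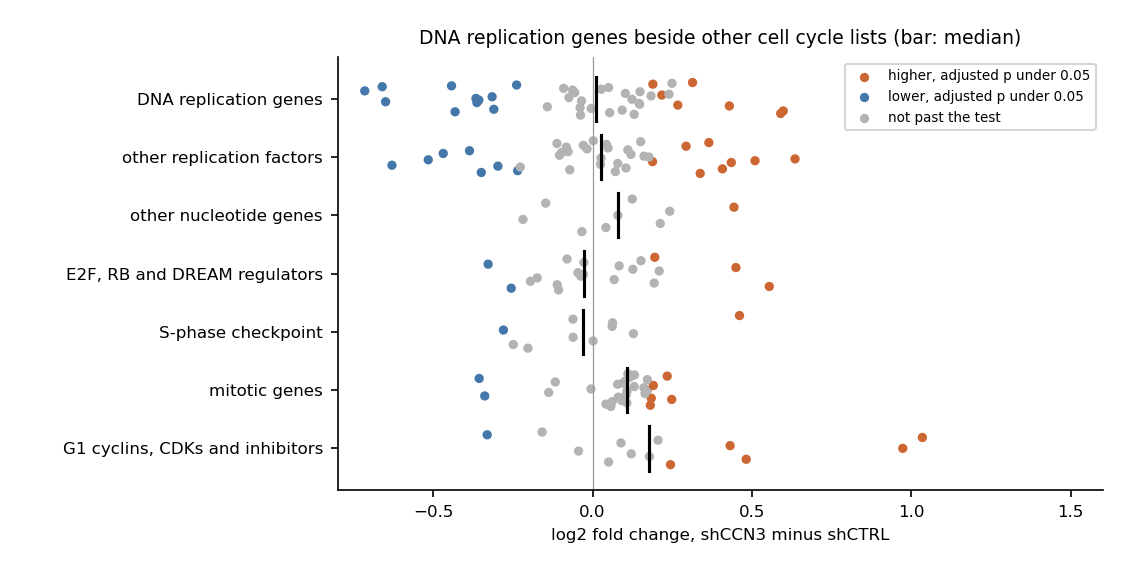
Log2 fold changes of shCCN3 minus shCTRL for the 40 replication genes and 6 other cell cycle lists; each point is a gene, the bar is the list's median, and colours mark adjusted p under 0.05. The medians lie between -0.03 and 0.18, and the replication genes spread from -0.71 to 0.60 around a median of 0.01.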

How the data were processed

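RNA was sequenced from 3 shCTRL and 3 shCCN3 samples, grouped by the sample labels, which give independent biological replicates. Whether those of a group are separate cultures of the same line is not stated. The SEs and adjusted p measure spread between libraries and may not cover spread between separately made lines. The authors prepared stranded poly(A) libraries and deposited raw counts per gene, without normalization. The submitters' processing notes list bcl2fastq 2.20.0, Trimmomatic, HISAT2 2.1.0, StringTie 2.1.3d, DESeq2 and GRCh38; the annotation and strand setting of the counting are not given in the sources used here.

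CPM (TMM-normalized) and fold changes came from edgeR 4.0.16 under R 4.3.3, with the filter on low counts by group, the quasi-likelihood test and Benjamini-Hochberg adjustment over 17419 genes. Every adjusted p printed comes from that test unless another tool is named. Gene positions came from RefSeq (GRCh38.p14, matched by Gene ID), transcript lengths from GENCODE release 29. Alternatives were DESeq2's size factors, upper-quartile normalization, no filter, at least 10 counts in every library, DESeq2 1.42.0, limma-voom (limma 3.58.1), a replicate block, each library left out in turn, a 1.5-fold limit, subtraction of chromosome medians and removal of chromosome 7. Subtraction of neighbour medians was added after the data were seen. Scripts were tested on simulated data.

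The members and lists were chosen with earlier results of these data known. Values per library are given for MCM2-7, RRM1, RRM2, TYMS, TK1, PCNA and the 5 largest passing changes in each direction. From each other list at most 4 passing genes are named, besides MKI67, E2F1, RB1, CCND1, CCNE1 and CDKN1A. Promoters are those of the 2 largest passing changes in each direction with an entry, and MCM6.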

Additional observations from a re-analysis of the deposited data

How the results depend on the processing

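Over 13 alternative fits, the 40 replication genes gave 520 values, of which 486 kept their direction and their side of the adjusted p of 0.05. With a library left out, the count of higher members ranged from 4 to 9 and that of lower members from 8 to 11, the median log2 fold change of the members from 0.008757 to 0.02626, the counts over all genes from 2044 to 3571 higher and 2137 to 3658 lower, and CCN3 from -1.119 to -1.088. The count of higher members was 4 without shCTRL replicate 3 or shCCN3 replicate 1, where 2278 and 2161 genes were higher over all genes. With the 1.5-fold limit 2 members were higher and 3 lower. Without chromosome 7, 7 members were lower and the median was 0.05208. It was 0.0372 with chromosome medians subtracted and 0.004764 with neighbour medians subtracted. DESeq2 also called MCM5 and POLE2 (adjusted p = 0.0342 and 0.0471), and RPA3 lost its call with upper-quartile normalization (adjusted p = 0.0504) and with no filter (adjusted p = 0.0591). The sign turned only for genes that did not pass the test: with a library left out, MCM10 ranged from -0.09061 to 0.04526, LIG1 from -0.03144 to 0.01561, RB1 from -0.0257 to 0.2185, ORC6 from -0.0678 to 0.01014 and RFC4 from -0.05529 to 0.0901. The cause was not tested. Same-numbered libraries did not deviate together (correlations of 0.0835, -0.0207 and -0.0456), so the numbers were not taken as pairs. With a replicate block 5 members were higher and 11 lower, with a median of 0.00936, POLE and RRM2 lost their calls (adjusted p = 0.0993 and 0.0971), and 2331 genes were higher and 2556 lower over all genes. The spread between 3 libraries limits the smaller differences more than counting does.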
